A study of Drosophila melanogaster with 6 samples.

Results

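The cytoplasmic ribosomal protein genes of Drosophila melanogaster were examined in RNA sequencing data from the larval central nervous system. They were taken as the genes whose RefSeq symbol starts with RpL or RpS and a digit, or with RpLP and a digit, which gave 92 genes of the 16959 matched in all. Of these, 23 have 1 RefSeq transcript in the deposited files and 69 have several. Each gene was represented by the transcript whose base mean, the authors' average of size-factor-normalized read counts over libraries, was the highest. The labels give 3 knockdown samples, with the genotype dSET2 RNAi/+; elavC155GAL4, and 3 control samples, with the genotype dSET2 RNAi/+; Canton S. Both groups thus carry the RNAi transgene, and only the knockdown carries the driver, a GAL4 insertion at elav that is expressed in neurons. Each sample was the pooled RNA of 15 third-instar larval central nervous systems at 84 h after egg laying, from larvae grown at 25 °C. The comparison asks what happens to transcripts when neurons are depleted of dSET2, the product of Set2, which methylates histone H3 at lysine 36.

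The files hold the authors' own comparison and no values per sample. The lowest base means were whole-number sums of 4 steps, each the value of 1 read in 1 library, so 4 libraries, called A, B, C and D, account for them, whereas the labels describe 6 samples. Transcripts with 1 read in A, C or D had a positive fold change, and those with 1 read in B a negative one. Positive fold changes below therefore mean that A, C and D were higher, and negative ones that B was higher. To which side the knockdown belongs is not written in the tables, and B stands alone on its side. Which labelled samples entered the tables, or were summed in them, is not known, so the fold changes carry no replicate check on the side of B.

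Cytoplasmic ribosomal proteins build the ribosome around its RNAs. The RpL proteins belong to the large subunit, which joins amino acids, and the RpS proteins to the small subunit, which reads the messenger RNA. The P proteins form the stalk of the large subunit that recruits translation factors. The proteins are needed in near-equal numbers, and in Drosophila the loss of 1 copy of many of these genes gives the Minute phenotype of slow growth and short bristles. Symbols ending in -like name relatives: RpL24-like, RpLP0-like and RpL7-like are related to yeast factors that assist the assembly of the large subunit, and RpL22-like is a paralogue of RpL22 known from the testis.

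No ribosomal protein gene was past the threshold of an adjusted p-value of 0.05. By edgeR in the authors' deposited table, 0 of the 86 members with a base mean above 0 had a false discovery rate under 0.05, against 2.27% of all genes with a base mean above 0. By DESeq2 in the authors' deposited table, 0 of the 75 members with an adjusted p-value were past it, against 2.44% of all genes with one. At an unadjusted p-value under 0.05, edgeR in the authors' deposited table gave 2 members, RpS21 and RpS10b, both positive. By DESeq2 in the authors' deposited table, 2 of the 86 members with a base mean above 0 had such a p-value, beside 553 of the 12487 genes. Of the 12487 genes with a base mean above 0, 7.07% had such a p-value by edgeR in the authors' deposited table, and 2.16% had one and were positive. By the false discovery rate, 3.4% of the 7478 genes with 1 transcript and a base mean above 0 were past the threshold, and 0.579% of the 5009 with several, by edgeR in the authors' deposited table. In bulk samples of this kind, fewer cells of a type and less RNA per cell cannot be told apart.

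The level listed for a ribosomal protein gene went with its number of transcripts. The 13 genes with 1 transcript and no paralogue among the members had base means from 46088 to 184178 in the authors' deposited table. Per kilobase of exon, their levels ran from 112899 to 355117 normalized counts, with a median of 171666. The 52 genes with several transcripts and no paralogue had a median of 25.4 normalized counts per kilobase, summed over all their transcripts. The medians differ by a factor of 6762, between groups of proteins that sit in the same particle. The 23 genes with 1 transcript held 15.3% of all base means and the 69 with several held 0.283%.

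The same split ran through the whole table at a smaller size. The 9611 genes with 1 transcript held 93.3% of all base means, with a median of 5.18 normalized counts per kilobase. The 7348 genes with several held 6.68%, with a median of 0.737 normalized counts per kilobase. The submitters' processing notes name featureCounts as the counter, and how it treated reads that lie in more than 1 transcript is not given in the sources used here.

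**Figure D1:**
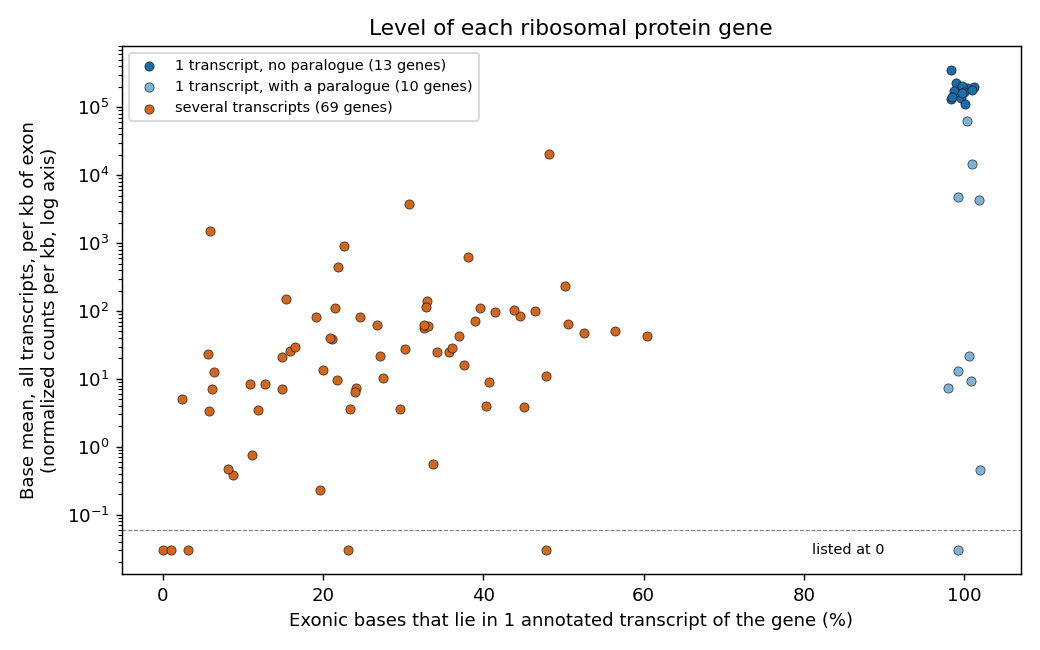
Summed base mean per kilobase of exon (vertical log axis, normalized counts per kb) against the percentage of a gene's exonic bases that lie in 1 annotated transcript, for the 92 ribosomal protein genes. Genes with 1 transcript lie at 100% and are spread sideways for legibility. The 13 without a paralogue sit at 112899 or above, the genes with several transcripts lie below them, and genes listed at 0 are drawn under the dashed line.

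Among the genes with 1 transcript, 5 had the highest base means in the authors' deposited table. These were RpL4 at 184178, RpLP2 at 137948, RpL14 at 122400, RpS27A at 115618 and RpL41 at 113638. RpLP2 is an acidic stalk protein, RpS27A is made as a fusion with ubiquitin, and RpL41 is a very short peptide. Per kilobase, RpL41 was the highest member at 355117 normalized counts and RpLP2 the next at 228391. RpL4, with 1400 exonic bases, was at 131556 normalized counts per kilobase, so the order of base means was not the order of levels per length.

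The other 10 genes with 1 transcript belong to paralogue groups, and their levels were spread widely. RpL22 was at 62203 normalized counts per kilobase, RpL24-like at 14623, RpS15Ab at 4802 and RpLP0-like at 4326. RpS10a was at 21.9 normalized counts per kilobase, RpS28a at 12.9, RpL22-like at 9.43 and RpL37-2 at 7.31. RpS28-like had 1 read in library A and none in C, D or B, and RpL10Aa was listed at 0. RpL22 thus stood far above RpL22-like, and both have 1 transcript.

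Most other pairs set a gene with 1 transcript beside one with several, and such values do not compare the copies. RpS15Ab, with 1 transcript, was at 4802 normalized counts per kilobase, and RpS15Aa, with 5 transcripts, at 112. RpL24-like was at 14623 normalized counts per kilobase, and RpL24, the ribosomal protein itself, at 15.96 with 3 transcripts. RpLP0-like was at 4326 normalized counts per kilobase and RpLP0, the base of the stalk, at 0.381 with 2 transcripts. The members of the remaining groups with several transcripts were RpL7, RpL10Ab, RpL34a, RpL34b, RpL37-1, RpS5a, RpS5b, RpS10b, RpS14a, RpS14b, RpS19a and RpS28b, which reached 447.9 normalized counts per kilobase at most. RpS19b and RpL7-like were listed at 0. RpS14a and RpS14b are tandem copies that encode the same protein, and how reads matching both were assigned is not given in the sources used here, so their split is uncertain.

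Of the 210 transcripts of the 69 genes with several, 111 were listed at 0 in the base means of the authors' deposited table. In 39 of the 69 genes a lone transcript had a base mean above 0, and in 50 genes a lone transcript held over 90% of the sum. High base means of this kind in the authors' deposited table were 2762 for RpL35, 1444 for RpL6, 1297 for RpL3 and 752 for RpS21. By base mean, 13 of the 69 genes were at 100 or more, 28 between 10 and 100 and 28 below 10, of which 5 were listed at 0.

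Core components of the ribosome were among the lowest. RpLP0 had 3 reads in library A and none in C, D or B. RpS6, the target of S6 kinase in the small subunit, had 1 read in library C and none in A, D or B. RpL30, RpL36A and RpS5b had 2 reads each over the 4 libraries. All 8 transcripts of RpL15 were listed at 0, as were all transcripts of RpL23A and RpL27A. Since the treatment of shared reads is not known, the level of these genes in the tissue cannot be read from such values.

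The Ensembl annotation of BDGP6.54 was used to count bases that lie in exactly 1 transcript of a gene, although it is later than the dm3 build named in the submitters' processing notes. RpL15 had 0% of its exonic bases in 1 transcript, RpS19b 1.05% and RpL27A 3.16%, and all 3 were listed at 0. The 4 genes under 5% had summed base means of 3.10 at most. The 30 genes between 5% and 25% had a median of 8.66 normalized counts, and the 35 genes at 25% or more a median of 65.0. Across the 69 genes with several transcripts, summed base mean and the number of such bases had a Spearman rho of 0.45, given as a description, since genes are not independent replicates and share libraries and annotation. RpL6, at 1444 normalized counts with 5.89% of its bases in 1 transcript, and RpL23A, listed at 0 with 23.1%, lay away from this order. Of the exonic bases of RpL7-like, 98.8% also lie in exons of another gene on either strand, and of those of RpL23A 31.9%.

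None of the fold changes of the genes with 1 transcript was past the threshold. Of the 23 genes, 19 had base means from 10 up, and 13 of these were positive. Their median log2 fold change by edgeR in the authors' deposited table was 0.14, against -0.05 over all 4227 genes with 1 transcript, of which 44.4% were positive. Over the 1864 of those genes with base means from 1000 up, the median log2 fold change by edgeR in the authors' deposited table was -0.02. Standard errors of the 19 log2 fold changes ran from 0.408 to 0.656 by DESeq2 in the authors' deposited table, and the 95% interval of each of the 19 included 0. These errors are not a plain measure of spread, since RpS28-like, with 1 read, had one of 0.286 and RpL4 one of 0.443. Over all genes with base means from 10 up, none was above 0.658 by DESeq2 in the authors' deposited table.

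**Figure D2:**
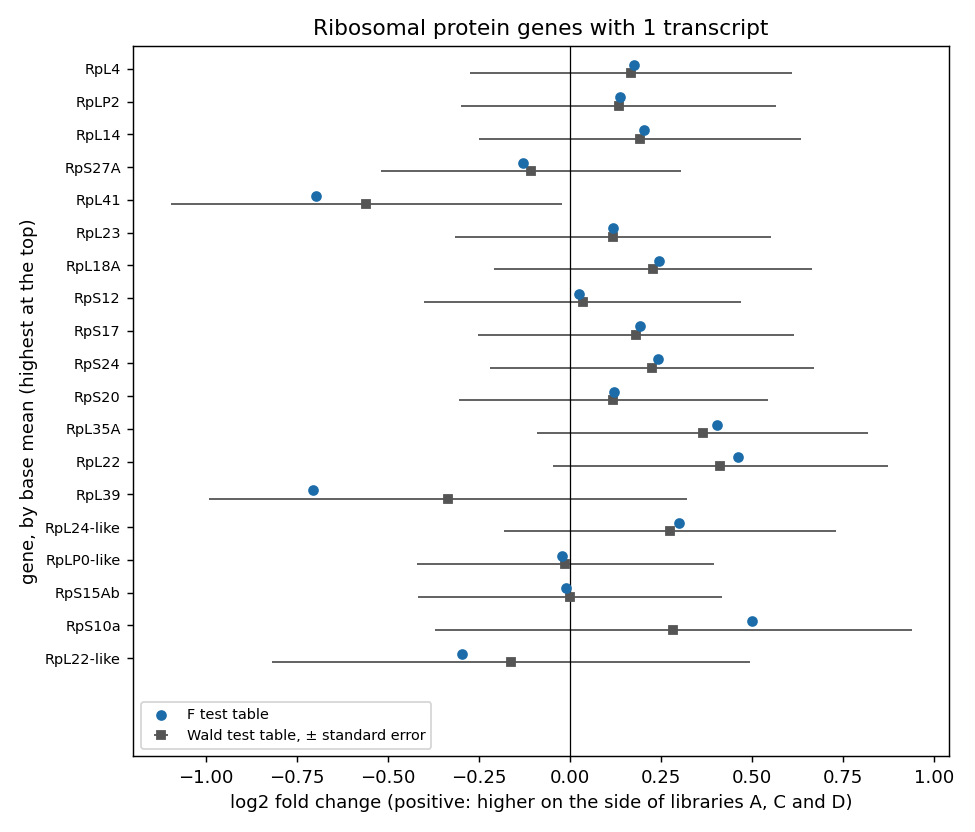
Log2 fold changes of the 19 ribosomal protein genes with 1 transcript and base means from 10 up, from the highest base mean at the top to the lowest. Circles are edgeR values (F test table), squares DESeq2 values (Wald test table) with their standard errors, and a positive value is higher on the side of libraries A, C and D. RpL39 and RpL41 lie farthest to the left, at -0.71 and -0.70 in the edgeR table.

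The most positive genes with 1 transcript were RpS10a, RpL22, RpL35A and RpL24-like. RpL22, a protein of the large subunit, had a log2 fold change of 0.46 by edgeR in the authors' deposited table, with an unadjusted p-value of 0.172. From DESeq2, the authors' deposited table has 0.41 ± 0.460 (standard error), with a 95% interval of -0.49 to 1.31. RpL35A had 0.40 by edgeR in the authors' deposited table and 0.36 ± 0.454 (standard error) in the DESeq2 table. RpL24-like had 0.30 by edgeR in the authors' deposited table. RpS10a, at 0.50 by edgeR in the authors' deposited table, rested on 21, 8 and 14 reads in A, C and D and 11 reads in B, and its normalized counts of 14.2, 8.87 and 19.96 in A, C and D spanned the 9.91 of B.

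The most negative were RpL39, RpL41, RpL22-like and RpS27A. RpL39 and RpL41 encode the smallest proteins of the large subunit, and with 288 and 320 exonic bases they had the shortest exons of the members with a base mean over 1000. RpL39 had a log2 fold change of -0.71 by edgeR in the authors' deposited table, with an unadjusted p-value of 0.701. RpL41 had -0.70 by edgeR in the authors' deposited table, with an unadjusted p-value of 0.595. The denominator degrees of freedom recovered from their F statistics were close to 2 for RpL39 and 2.51 for RpL41, against at least 1857 for the other 60 members with an F of 0.1 or more. Their standard errors, 0.655 for RpL39 and 0.537 for RpL41, were the highest among the members over 1000 normalized counts by DESeq2 in the authors' deposited table. Without them the median of the genes with 1 transcript was 0.18 by edgeR in the authors' deposited table. RpS27A had -0.13 by edgeR in the authors' deposited table. RpL22-like had 10.8, 12.2 and 9.98 normalized counts in A, C and D, and 13.5 in B, from 7 to 16 reads a library.

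The remaining genes of this kind without a paralogue ran from 0.02 for RpS12 to 0.40 for RpL35A, apart from RpS27A, by edgeR in the authors' deposited table. By subunit, the 10 large subunit genes with base means from 10 up had a median of 0.19 and the 7 small subunit genes one of 0.12 by edgeR in the authors' deposited table. RpLP2 of the stalk had 0.14 by edgeR in the authors' deposited table and 0.13 ± 0.433 (standard error) in the DESeq2 table, with a 95% interval of -0.71 to 0.98. RpL4 had 0.18 by edgeR in the authors' deposited table, and its 95% interval in the DESeq2 table ran from -0.70 to 1.04. Such intervals do not show that levels were equal.

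Of the 69 genes with several transcripts, 41 had base means from 10 up. Their median log2 fold change was 0.25 by edgeR in the authors' deposited table, beside 0.23 over all 2369 genes of this kind. Of the 41 genes, 27 were positive, or 65.9%, beside 64.3% of all genes of this kind. In the whole table the genes with several transcripts were thus at 0.23 and those with 1 at -0.05, against 0.25 and 0.14 for the corresponding ribosomal protein genes, by edgeR in the authors' deposited table. By subunit, the 18 small subunit genes had a median of 0.43 and the 23 large subunit genes one of 0.04 by edgeR in the authors' deposited table, a difference that was not tested.

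**Figure D3:**
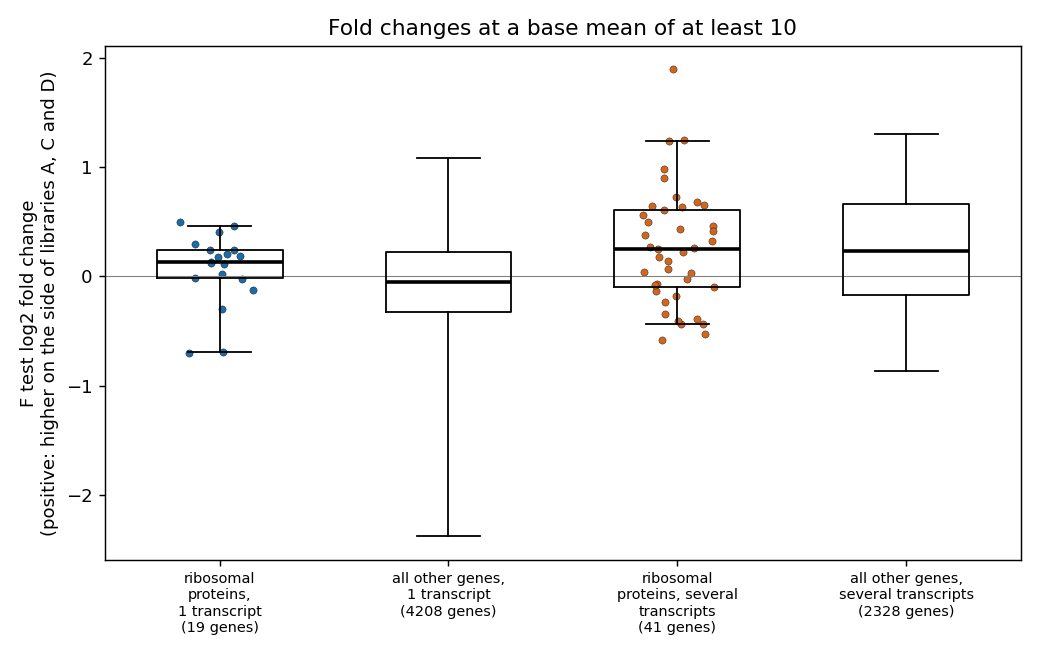
Log2 fold changes by edgeR (F test table) of genes with base means from 10 up, for ribosomal protein genes beside all other genes with the same number of transcripts. Lines mark medians, boxes the middle 50% and whiskers the 5th to 95th percentile, and dots are the members. Members with 1 transcript have a median of 0.14, and members with several lie around 0.25 as the other genes of that kind do around 0.23.

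The most positive genes with several transcripts were RpS10b, RpL7A, RpS21 and RpS5a. RpS10b, of the small subunit, had 59.4, 86.5 and 78.4 normalized counts in libraries A, C and D, and 19.8 in B. Its 95% Poisson interval for B, 12.4 to 30.01, lay below the lowest of the others, 47.7 to 73.2 for A. Its log2 fold change was 1.90 by edgeR in the authors' deposited table, at an unadjusted p of 0.0186 and an edgeR false discovery rate of 0.970. From DESeq2, the authors' deposited table has 1.45 ± 0.549 (standard error) and an adjusted p-value of 0.254. Poisson intervals cover counting error only and compare these libraries, not the conditions. RpS10b was named for its positive fold change, which itself sets A, C and D above B, so the gap is not separate evidence.

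RpS21, a small subunit protein, had a base mean too high to resolve into reads. Its log2 fold change was 1.25 by edgeR in the authors' deposited table, at an unadjusted p of 0.0158 and an edgeR false discovery rate of 0.868. From DESeq2, the authors' deposited table has 1.09 ± 0.448 (standard error) and an adjusted p-value of 0.394. RpL7A, of the large subunit, had 42.5, 28.8 and 52.7 normalized counts in A, C and D, and 17.1 in B, and a log2 fold change of 1.25 by edgeR in the authors' deposited table. RpS5a had 32.4, 38.8 and 31.4 normalized counts in A, C and D, and 17.1 in B, and a log2 fold change of 0.99 by edgeR in the authors' deposited table. In RpS10b, RpL7A and RpS5a, B was the lowest of the 4 libraries, which naming them for their positive fold changes favours. None of the 3 genes was past the threshold.

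The most negative were RpL5, RpL28, RpL13A and RpL3. RpL5, which binds 5S ribosomal RNA together with RpL11, had 42.5, 57.6 and 11.4 normalized counts in A, C and D, and 56.8 in B. Library D, with 8 reads, was the lowest and B lay between A and C. The log2 fold change was -0.58 by edgeR in the authors' deposited table. RpL28 had 53.4, 51.0 and 55.6 normalized counts in A, C and D, and 76.6 in B, and RpL13A had 12.2, 7.76 and 14.3 in A, C and D, and 15.3 in B. RpL3, which lies near the peptidyl transferase centre, had -0.43 by edgeR in the authors' deposited table and -0.36 ± 0.519 (standard error) in the DESeq2 table.

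**Figure D4:**
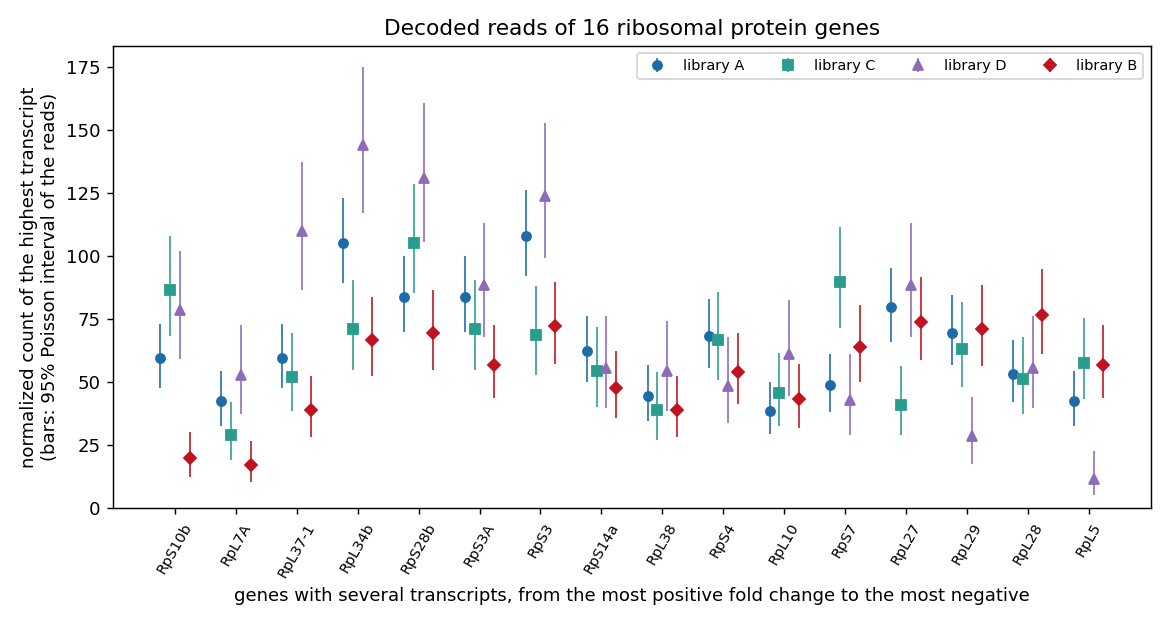
Normalized counts of the highest transcript in libraries A, C, D and B for the 16 genes with several transcripts and a base mean between 30 and 100, ordered by edgeR log2 fold change. Bars are 95% Poisson intervals of the reads, which cover counting error only. RpS10b shows B at 19.8 below the others, and RpL5 and RpL29 show library D at 11.4 and 28.5 below the others.

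For 28 genes with several transcripts and a base mean between 10 and 100, reads could be set side by side across libraries. Library B was below A, C and D in 11 of the 28, against 33.5% of all genes of this kind and range, and above them in 4 of the 28, against 16.7%. The members' counts are close to those shares. The highest transcripts of the 28 genes summed to 1334, 1248 and 1468 normalized counts in A, C and D, and to 1115 in B, and library D was the highest in 13 of the 28 genes. Over all 1478 genes of this kind and range the sums were 47787, 58646 and 58799 normalized counts in A, C and D, and 50067 in B, and D was the highest in 39.4% of them. The members' sum was thus lowest in B and that of all such genes in A, a difference that was not tested. RpS7 was highest in library C, at 89.8 normalized counts beside 48.6 in A, 42.8 in D and 64.0 in B. RpL29 and RpL27, both large subunit genes, were lowest in libraries on the same side, at 28.5 in D and 41.0 in C. In RpS7 and RpL27 the value of B lay within the range of A, C and D.

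RpS3A, the only member on chromosome 4, had 83.7, 70.9 and 88.4 normalized counts in A, C and D, and 56.8 in B. Its log2 fold change of 0.50 by edgeR in the authors' deposited table had an unadjusted p-value of 0.480. The other paralogues with several transcripts and at least 10 normalized counts were RpL34b at 0.66, RpS28b at 0.61, RpL37-1 at 0.90, RpL24 at 0.68, RpS15Aa at 0.27, RpS14a at 0.26, RpL10Ab at -0.24 and RpS19a at -0.41 by edgeR in the authors' deposited table. RpL37-1 had 59.4, 52.1 and 109.8 normalized counts in A, C and D, and 38.7 in B, so that library D held the highest value.

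Below a base mean of 10, fold changes rested on few reads. RpS14b had 12, 10 and 6 reads in A, C and D, and 3 in B. RpL7, which has RpL7-like as a relative, had 5, 3 and 2 reads in A, C and D, and 8 in B. RpS27 had 9, 2 and 1 reads in A, C and D, and 0 in B, where 3 reads would be a normalized count of 2.70. RpL37-2 had 3 reads in each of A, C, D and B, which are 2.03, 3.33, 4.28 and 2.70 normalized counts. Reads in this paragraph are not normalized, so equal reads are not equal levels. Of the 26 members above 0 in this range, 20 had from 11 to 41 reads over the 4 libraries, and RpLP0, RpL30, RpS5b, RpL36A, RpS6 and RpS28-like had 3 or fewer.

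Transcripts of 1 gene did not always have the same sign. Among the 11 genes with more than 1 transcript at base means from 10 up, the spread was largest in RpS10b, RpL3 and RpL7A. RpS10b had 1.90 for NM_134480 and -0.47 for NM_001258829 by edgeR in the authors' deposited table, and NM_001258829 had 16, 11 and 4 reads in A, C and D, and 15 in B. RpL3 had -0.43 for NM_169380 and 1.12 for NM_169378 by edgeR in the authors' deposited table, with unadjusted p-values of 0.298 and 0.118. RpL7A had 1.25 for NM_001298016 and -0.13 for NM_078508 by edgeR in the authors' deposited table. In RpS21 the next transcript, NM_001273041, had 29, 22 and 17 reads in A, C and D, and 8 in B, and its log2 fold change of 1.63 by edgeR in the authors' deposited table had the same sign as the 1.25 of the first. None of the 233 member transcripts was past the threshold in either table, and 112 of them were listed at 0. Of 15342 transcripts not listed at 0, 1.93% were past it by edgeR in the authors' deposited table, and of 9221 with an adjusted p-value 2.26% were by DESeq2.

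Small nucleolar RNAs, which guide the modification of ribosomal RNA, are often made from introns of ribosomal protein genes. In the annotation, 5 of the 23 genes with 1 transcript held 9 nested snoRNA genes on the same strand, and 23 of the 69 genes with several held 65. RpS5a held 14 of them, and RpS7 7. By chromosome arm, 10 of the 23 genes with 1 transcript lie on 2R, and RpL22 is the only one on X, where 13 of the genes with several transcripts lie.

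Other genes of protein synthesis were described from lists. Of 73 mitochondrial ribosomal protein genes, which serve the separate ribosome of mitochondria, 54 with 1 transcript had base means from 10 up. Their median log2 fold change was 0.21 by edgeR in the authors' deposited table and 49 of the 54 were positive. The extremes of this list over both kinds of gene were mRpS30, with 2 transcripts, and mRpL34, with 1. They were at 0.90 and -0.28 by edgeR in the authors' deposited table. Of 37 translation factors, 10 had 1 transcript, with a median of 0.00 and 5 of 10 positive, and 17 had several and base means from 10 up, with a median of 0.37 by edgeR in the authors' deposited table. The elongation factor subunits eEF1beta at 0.94 and eEF1delta at -0.46 were the extremes by edgeR in the authors' deposited table. Of 28 genes of ribosome biogenesis and RNA polymerase I, 18 had 1 transcript and base means from 10 up, with a median of -0.11 and 4 of 18 positive by edgeR in the authors' deposited table. Its extremes over both kinds of gene were TAF1B, with 3 transcripts, and Nnp-1, with 1. TAF1B, an RNA polymerase I factor, was at 0.86 and Nnp-1 at -0.29 by edgeR in the authors' deposited table. None of the genes on these 3 lists was past the threshold in either table. Among genes with 1 transcript, the cytoplasmic and mitochondrial ribosomal protein lists thus had positive medians and the biogenesis list a negative one, and no test compares them.

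The tissue and the RNAi target were checked. The neuronal gene elav had a base mean of 2614, the glial gene repo 5413 and the neuroblast gene dpn 151, all from the authors' deposited table. The value of elav is that of 1 of its 4 transcripts, while repo and dpn have 1 transcript each, so these levels do not compare the cell types. Of 13 neuronal markers, 11 had base means from 10 up, all 11 positive with a median of 0.45 by edgeR in the authors' deposited table. Of these, 10 have several transcripts, a kind with a median of 0.23 over all genes, and VAChT, with 1 transcript, was at 0.19 by edgeR in the authors' deposited table. The 2 neuronal markers below 10, Snap25 at -3.11 and Appl at -1.10, were negative by edgeR in the authors' deposited table. The median was 0.21 over 3 glial markers with 1 transcript and -0.23 over 3 with several by edgeR in the authors' deposited table. Over neuroblast markers it was 0.07 for 4 with 1 transcript and 0.14 for 4 with several by edgeR in the authors' deposited table. Of 11 salivary gland markers, 10 had base means from 10 up, 9 of them negative with a median of -10.08 and 8 past the threshold by edgeR in the authors' deposited table, where 2.06% of the 12487 genes with a base mean above 0 were negative and past it. The median was -1.69 over 6 of 12 muscle markers and -6.62 over 2 of 6 fat body markers by edgeR in the authors' deposited table. No muscle or fat body marker was past the threshold by edgeR, and only Lsp1alpha was by DESeq2. Lsp1alpha was at -1.99 and Lsp1gamma at -1.63 by DESeq2 in the authors' deposited table. Below a base mean of 10, Lsp1beta at -2.15 and Fbp2 at -3.10 were negative and Lsp2 at 3.21 positive by edgeR in the authors' deposited table. None of the salivary gland or muscle markers was listed at 0, and 1 of the 6 fat body markers, Fbp1, was. Most salivary gland, muscle and fat body markers with base means from 10 up were thus listed as higher in library B, and their part in the fold changes of ribosomal protein genes was not tested. Set2 had 10, 21 and 0 reads in A, C and D, and 36 in B, and was not past the threshold in either table. Its normalized counts were 6.75, 23.3 and 0 in A, C and D, and 32.4 in B. Its log2 fold change was -1.65 by edgeR in the authors' deposited table and -0.85 ± 0.657 (standard error) in the DESeq2 table.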

How the data were processed

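RNA from larval central nervous systems was sequenced. The authors used HISAT2, featureCounts, DESeq2 and edgeR and the build dm3, per the submitters' processing notes, with no versions named. Per the file headers, the deposited tables give for each of 34115 RefSeq transcripts a base mean (a signal: mean normalized read count), log2 fold changes, the log2 CPM, standard errors, test statistics (scores) and p-values, all computed by the authors. Sample columns were not among the headers, and 0 such columns were set aside. The authors' edgeR results were the main result and their DESeq2 results an alternative. The depth of each labelled sample is unknown.

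Transcripts were matched to genes by RefSeq accession (33994 matched, Release 6 plus ISO1 MT). The build dm3 was not in use here, so no coordinates are given. Each base mean up to 100 was written as whole reads in 4 libraries (size factors 1.48, 1.11, 0.902 and 0.701 for A, B, C and D) with a tolerance of 6e-09 from base mean 10. Exactly 1 set was found for 100% of 9921 transcripts up to 30 and for 98.5% of 1424 from 30 to 100. Of base means shifted at random, 11.4% had a set in the upper range. The decoded ratio of the sides had a median distance of 0.0127 from the authors' edgeR log2 fold change there. The decoding was tested on simulated data. Poisson intervals are exact, at the 95% level, and floors are 3 reads. Intervals from the authors' DESeq2 fold changes assume a normal distribution. The members and lists were chosen with earlier results of these data known. Named are called members, the 5 highest, the 4 most positive and 4 most negative of each kind, paralogues, members up to a base mean of 30, the 3 genes with the largest spread among transcripts, and the extremes of each list. Others named were chosen after their values were seen. A result that the rule would name is not reported here. Python 3.11.15, scipy 1.17.1 and pandas 2.3.3 were used.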

Additional observations from a re-analysis of the deposited data

How the results depend on the processing

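Of 45 combinations of a count or median with an alternative setting, 43 stayed within 1.5 times (counts) or 0.1 on the log2 scale (medians). Some of these could not have differed. With both counts at 0, a stricter threshold, leaving out -like members or requiring a call in both tables must give 0. For genes with 1 transcript, the mean weighted over transcripts is the same value. Among members with several transcripts, leaving out -like members removed only RpL7-like, which was listed at 0. Without adjustment, 2 positive members had a p-value under 0.05 in place of 0. With every base mean above 0, the median of members with several transcripts was 0.35 in place of 0.25, which adds genes resting on few reads. The 86 members with a base mean above 0 had the same sign in all 146 combinations of a member and an alternative. Adjusting the p-values again over the genes with higher base means keeps the edgeR fold change, so its sign could not differ. Only the DESeq2 alternative could have reversed a sign, and it rests on the same reads. An adjusted p-value existed in 135 of the 146 combinations, at least 0.253 and on the same side of the threshold. In the other 11, all from DESeq2, there was none. Requiring a call in both tables and leaving out RpL39 and RpL41 were chosen after seeing the data. No paired analysis was possible because no value in the files belongs to 1 sample, and leaving out samples, the replicate block and other normalizations were not run for the same reason. Members above a base mean of 100 have no reads per library here. The spread of the most abundant genes can thus be judged only from the authors' own fits. These give the standard errors, which are not a plain measure of it, and the F statistics.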
